A study of Mus musculus with 3 samples.

Results

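The genes described here encode the factors that start and extend protein chains on the ribosome. They were all genes of the deposited annotation whose symbols begin with *Eif1* to *Eif6* or with *Eef1* or *Eef2*, and 60 of 65 such genes held 100 or more UMIs (counted RNA molecules) over the 3 libraries. The annotation lists 27998 genes in all, of which 13787 reached that number. The other 5 matches were left out for low counts. *Eef1a2*, the elongation factor form of nerve and muscle, had 3 UMIs, *Eif4ebp3* had 30, and *Eif2s3y*, *Eif2c5* and *Eif4e1b* had 0.

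The study sequenced RNA of single EpCAM+ epithelial cells from the small intestine of wild-type (WT), *LApc* and *LApcL* mice, with 1 library per genotype. *LApc* mice carried *Lgr5-EGFP-IRES-CreERT2* and *Apc fl/fl*, and *LApcL* mice had the same alleles plus *Lef1 fl/fl*, so that recombination starts in Lgr5+ stem cells and reaches their progeny, while the remaining epithelium stays unrecombined. Per the labels all mice were C57BL/6, were 7 to 8 weeks old and received 2 tamoxifen doses of 2 mg. In the methods, 7 to 8 weeks is the age of *LApc* and *LApcL* mice at tamoxifen, and 2 doses are stated for these mice. The methods section on WT and *Lef1 fl/fl* mice names 1 dose. *Xist*, a transcript of female cells, had 96779, 58027 and 178205 UMIs in WT, *LApc* and *LApcL*. Of the Y-linked genes *Ddx3y* and *Eif2s3y* had 0 UMIs, and *Uty* and *Kdm5d* had 3 and 4 over all libraries, as in female mice. WT and *LApcL* cells were collected on day 21 and *LApc* cells on day 29, so genotype cannot be told apart from mouse and library, nor, for *LApc*, from day.

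Translation begins when eIF2, loaded with GTP and the initiator tRNA, joins the small ribosomal subunit together with eIF1, eIF1A, eIF3 and eIF5. The eIF4F complex (the cap-binding eIF4E, the scaffold eIF4G and the helicase eIF4A) brings the mRNA to this subunit, and the subunit scans to the start codon. eIF4E-binding proteins hold eIF4E back when mTOR signaling is low, and the eIF2 kinases restrain eIF2 under stress by blocking its recycling through eIF2B. After eIF5B has joined the large subunit, eEF1A delivers each aminoacyl-tRNA, the eEF1B subunits recharge eEF1A, and eEF2 moves the ribosome along by a codon. The intestinal epithelium renews itself from dividing crypt cells, and *Apc* loss in these cells leaves Wnt signaling and its target *Myc* active. Many genes of ribosomes and translation factors are known Myc targets.

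Myc binds the E-box CACGTG, so this motif was searched in the RefSeq promoters of GRCm38.p6, which run from 250 bases before to 50 bases after a listed start. A promoter was listed for 48 of the 60 genes. The E-box stood in at least 1 promoter of 12 of them (25%), namely *Eef2*, *Eef2k*, *Eif1b*, *Eif3a*, *Eif3f*, *Eif3k*, *Eif4a1*, *Eif4e*, *Eif4g1*, *Eif4h*, *Eif5a* and *Eif5a2*, beside 8.09% of all 27025 genes with a promoter and 11.5% of the 10295 tested genes with one. The motif reads the same on both strands. The cyclic AMP response element TGACGTCA, also a palindrome, stood in the promoter of *Eef2* alone (2.08% of the genes, beside 3.62% of those tested), and TGATGCAA, a site of the stress factor Atf4 that was searched on both strands, in 0 of 48 (0.748% of those tested). The motifs do not overlap. A match is only a match of letters. The 4 stretches of 80 bases below lie upstream of a start, that of *Eif4a1* from 226 to 147 bases before it and the others within 91 bases of it, and are shown for the helicase and the scaffold of eIF4F, for eEF2 and for the kinase that restrains eEF2, with the E-box in capitals.

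*Eif4a1*, chr11:69672570-69672649, minus strand, E-box 189 bases before the start: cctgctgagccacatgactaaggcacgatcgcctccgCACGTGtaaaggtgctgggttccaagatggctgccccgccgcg
*Eif4g1*, chr16:20672636-20672715, plus strand, E-box 54 bases before the start: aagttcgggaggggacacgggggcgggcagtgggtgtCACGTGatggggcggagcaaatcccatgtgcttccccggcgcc
*Eef2*, chr10:81176551-81176630, plus strand, E-box 43 bases before the start: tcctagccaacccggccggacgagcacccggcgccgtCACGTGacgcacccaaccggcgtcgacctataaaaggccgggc
*Eef2k*, chr7:120842751-120842830, plus strand, E-box 31 bases before the start: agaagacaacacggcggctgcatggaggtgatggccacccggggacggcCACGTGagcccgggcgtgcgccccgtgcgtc

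The libraries held 11453 to 17388 cell barcodes and 79696291 (*LApc*) to 191509615 (*LApcL*) UMIs. After filtering, 10138 WT, 9601 *LApc* and 14394 *LApcL* cells remained, with median UMI counts of 9712, 6133 and 10140. *LApc* stood apart by its depth and by 17.7% of barcodes over the mitochondrial limit of 20%, against 0.541% and 2.38%. Pairs of libraries shared 214 to 318 barcode sequences. Clustering gave enterocyte-, goblet-, Paneth-, enteroendocrine- and tuft-like cells, in each of which all fixed markers of the class were raised, and stem and transit-amplifying (Wnt/TA-like) cells. Wnt/TA-like subclusters of which WT gave under 10% were taken as adenoma-enriched (1260 *LApc* and 8977 *LApcL* cells), and the rest as other Wnt/TA-like cells (3028, 2206 and 1475 in WT, *LApc* and *LApcL*). Adenoma-enriched cells had 3 WT cells, whose values are not given. *Lef1*, the gene deleted in *LApcL*, stood at 21.1 CPM (UMIs of a gene, scaled to a common total of all UMIs of the cells) in *LApc* and at 3.52 CPM in *LApcL* adenoma-enriched cells, a log2 ratio of −2.59 (−2.83 to −2.34). *Apc* stood at 48.7 and 37.2 CPM, and counts at the RNA's 3′ end do not show whether its floxed exon was lost. With 1 library per genotype no test was possible. Intervals are exact 95% intervals of the counts and cover counting error only. A gene is called higher or lower where a log2 ratio of CPM passes 1.5-fold and its interval leaves out 0.

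Taken over all 60 genes, the factors had their highest share of UMIs in Wnt/TA-like cells and their lowest in Paneth-like cells. In other Wnt/TA-like cells they made up 2.04% of all UMIs in WT, 2.09% in *LApc* and 2.20% in *LApcL*, and adenoma-enriched cells gave 2.02% (2.01 to 2.03) for *LApc* and, for *LApcL*, 2.18% (2.18 to 2.19). The adenoma-enriched share was thus slightly below that of the other Wnt/TA-like cells of the same library. Without *Eef1a1*, which delivers tRNA to the ribosome, the order was the opposite, with 1.51% against 1.48% in *LApc* and 1.63% against 1.55% in *LApcL*. Enterocyte-like cells followed with 1.32%, 1.26% and 1.58% in WT, *LApc* and *LApcL*, goblet-like cells with 1.35%, 1.14% and 1.66%, enteroendocrine-like cells with 1.58%, 1.31% and 1.80%, and tuft-like cells with 1.74%, 1.40% and 1.83%. In each of these 4 classes *LApc* had the lowest and *LApcL* the highest share. Paneth-like cells gave 0.326%, 0.684% and 1.09%, and in WT these cells had a median of 40288 UMIs, against 4760 and 8985 in *LApc* and *LApcL*. The share of ribosomal protein UMIs moved alongside, from 4.18% in WT Paneth-like cells to 35.6% in other Wnt/TA-like cells of *LApcL*. A share says nothing of RNA per cell, and the part of depth and of the most abundant RNAs of a class in these shares was not tested.

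**Figure D1:**
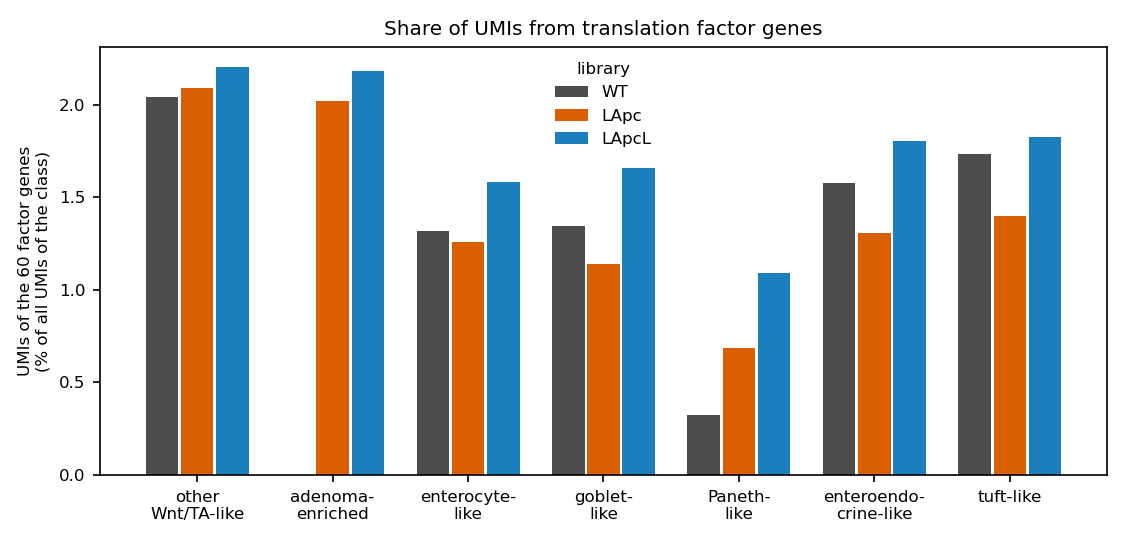
Share of UMIs from the 60 factor genes (y axis, percent of all UMIs of a class, from 0) in each cell class (x axis), 1 bar per library, with no error bars. The exact intervals are given in the text for adenoma-enriched cells. Other Wnt/TA-like bars stand between 2.04% and 2.20%, and the WT Paneth-like bar at 0.326% is the lowest of the plot.

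The first comparison set adenoma-enriched cells against the other Wnt/TA-like cells of the same library, which asks how the factors differ in adenoma cells without a difference between libraries. The median log2 ratio over the 60 genes was 0.21 in *LApc*, beside 0.26 over all 13787 genes tested, and 0.26 in *LApcL*, beside 0.18. TMM scaling, which centers abundant genes, shifted all ratios by −0.27 in *LApc* and −0.17 in *LApcL* and took the medians to −0.06 and 0.08. In *LApc*, 6 genes were called higher (30.3% of all genes tested were) and 3 lower (10.4%), and in *LApcL* 10 were called higher (19.7%) and 0 lower (8.86%). By the intervals alone, 33 genes lay above 0 and 11 below in *LApc*, and 37 and 15 in *LApcL*, but 17 and 26, and 30 and 22, under TMM. The shares of all genes by intervals alone were not counted. Called higher in both libraries were 5 genes (16.6% of all genes), *Eif4e3*, *Eif4ebp1*, *Eif2ak3*, *Eif4g2* and *Eif4g3*, and 0 were called lower in both (5.32%). Under TMM the 5 ratios kept their direction and *Eif4e3* alone was called in both.

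The eIF4F members divided by paralog. *Eif4e3* (chr6:99625135-99666771 of GRCm38, minus strand) encodes a cap-binding relative of eIF4E. It stood at 16.6 CPM in *LApc* adenoma-enriched cells and at 3.46 CPM in the other Wnt/TA-like cells, a log2 ratio of 2.26 (1.81 to 2.73). In *LApcL* the levels were 12.7 and 2.74 CPM and the ratio 2.21 (1.75 to 2.72). It was the highest ratio of the 58 genes with 100 or more UMIs in both libraries, and the WT level of other Wnt/TA-like cells, 1.66 CPM, was lower still. *Eif4e*, the cap-binding protein of eIF4F itself, had 116 against 79.6 CPM in *LApc* (0.54, 0.43 to 0.66) and 120 against 75.9 CPM in *LApcL* (0.66, 0.57 to 0.75), so that only the second was called. As a share of both genes' UMIs, *Eif4e3* made up 12.5% in *LApc* and 9.54% in *LApcL* adenoma-enriched cells, against 4.17% and 3.48% in the other Wnt/TA-like cells.

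Among the scaffolds, *Eif4g3* (chr4:137993022-138208508, plus strand) stood at 55.0 against 20.4 CPM in *LApc* (1.43, 1.23 to 1.63) and at 39.2 against 23.8 CPM in *LApcL* (0.72, 0.56 to 0.88). *Eif4g2*, which encodes a scaffold without the eIF4E site and serves cap-independent initiation, had ratios of 0.69 (0.62 to 0.75) and 0.66 (0.61 to 0.71). *Eif4g1*, the main scaffold, had ratios of 0.18 and 0.22, below those of both relatives, and the *LApc* ratio turned negative under TMM. The helicase gene *Eif4a1* stood at 964 against 687 CPM (0.49) and 954 against 734 CPM (0.38), whereas its paralog *Eif4a2* had ratios of 0.05 (−0.06 to 0.16), negative under TMM, and −0.11 (−0.19 to −0.02). *Eif4b*, the helper of this helicase, was called lower in *LApc* (122 against 190 CPM, −0.64) and had a ratio of −0.16 in *LApcL*.

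*Eif4ebp1* (chr8:27260329-27276674, plus strand), the mTOR-controlled repressor that binds eIF4E, stood at 145 against 80.4 CPM in *LApc* (0.85, 0.74 to 0.96) and at 147 against 74.0 CPM in *LApcL* (0.99, 0.90 to 1.09). Both adenoma-enriched levels lay above the 57.4 CPM of WT other Wnt/TA-like cells. *Eif4ebp2*, a repressor of the same family, did not follow, with ratios of −0.26 (−0.54 to 0.01) and −0.03 (−0.21 to 0.16). Its share of the pair's UMIs was 10.5% and 11.2% in adenoma-enriched cells, against 20.3% and 20.4% in the other Wnt/TA-like cells.

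In the eIF2 branch, the subunit genes had mostly positive ratios, as did all genes by their medians (0.26 in *LApc* and 0.18 in *LApcL*). The kinases differed among themselves. *Eif2ak3* (chr6:70844515-70905245, plus strand), which encodes Perk, the eIF2 kinase of the endoplasmic reticulum, stood at 11.7 against 6.05 CPM in *LApc* (0.96, 0.55 to 1.36) and at 7.70 against 4.61 CPM in *LApcL* (0.74, 0.37 to 1.13). The *LApcL* interval rests on 64 UMIs in the other Wnt/TA-like cells. *Eif2s2*, the beta subunit of eIF2, had ratios of 0.48 and 0.74, of which the second was called, and *Eif2s1*, the alpha subunit that the kinases phosphorylate, 0.53 and 0.56. *Eif2b4*, a subunit of the exchange factor eIF2B, was called higher in *LApc* (45.1 against 28.5 CPM, 0.66) and had a ratio of 0.47 in *LApcL*, and all 5 eIF2B genes had ratios above 0 in both libraries by CPM, between 0.05 and 0.66, where *Eif2b1* in *LApc* turned negative under TMM. *Eif2a*, an alternative initiator tRNA carrier that is not part of eIF2, was called lower in *LApc* (53.5 against 80.3 CPM, −0.59) and had a ratio of −0.24 in *LApcL*. *Eif2ak2*, the kinase that senses double-stranded RNA, had a ratio of −0.30 (−0.47 to −0.14) in *LApcL* and of 0.31 in *LApc*.

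Of the 6 scanning and joining factors 5 had intervals above 0 in each library by CPM. The median over all genes tested was itself above 0, at 0.26 in *LApc* and 0.18 in *LApcL*, and no share of all genes was counted by intervals alone. *Eif5b*, the joining factor, had ratios of 0.43 and 0.60, called in *LApcL*, and *Eif1*, *Eif1a*, *Eif1ax* and *Eif5* lay between 0.27 and 0.40 in both libraries. The other was *Eif1b*, a paralog of *Eif1*, with −0.03 (−0.18 to 0.12) in *LApc* and −0.16 (−0.27 to −0.05) in *LApcL*. *Eif6*, which keeps the ribosomal subunits apart, had ratios of 0.36 and 0.30. *Eif5a*, which encodes the hypusine-carrying factor that helps ribosomes past difficult stretches, stood at 1014 against 867 CPM in *LApc* (0.23, negative under TMM) and at 1196 against 869 CPM in *LApcL* (0.46). *Eif5a2* had 71 and 2 UMIs in *LApcL*, a call (2.19, 0.29 to 5.26) that rests on those 2. The 14 eIF3 genes spread to both sides. *Eif3c* was the highest of them with 100 or more UMIs in both libraries (0.47 and 0.44), *Eif3a*, the largest subunit, had 0.20, negative under TMM, and 0.25, and *Eif3e*, *Eif3f* and *Eif3h* had −0.20, −0.18 and −0.26 in *LApc* and −0.35, −0.34 and −0.29 in *LApcL*.

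Of the 8 genes with elongation symbols, 4 had intervals below 0 in both libraries. *Eef1a1* stood at 5047 against 6144 CPM in *LApc* (−0.28) and at 5482 against 6539 CPM in *LApcL* (−0.25). *Eef2*, the translocase, stood at 1314 against 1595 CPM (−0.28) and 1293 against 1548 CPM (−0.26). *Eef1b2*, the exchange factor that recharges eEF1A, was called lower in *LApc* (1041 against 1614 CPM, −0.63) and had −0.40 in *LApcL*, and *Eef1g*, its partner subunit, had −0.37 and −0.18. TMM shifts the ratios downward in both libraries, so it could not bring these 4 genes above 0. The median of 82 ribosomal protein genes was −0.35 and −0.24 by CPM. *Eef1e1*, which encodes a scaffold protein of the tRNA synthetase complex despite its symbol, differed from them with 91.2 against 61.7 CPM (0.56) and 80.4 against 48.0 CPM (0.74, called). *Eef1d*, another subunit of the exchange factor, had 0.03 (−0.03 to 0.09) and 0.08 (0.04 to 0.12), both negative under TMM, and *Eef2kmt*, which encodes a methyltransferase acting on eEF2, −0.12 (−0.34 to 0.09) and −0.06 (−0.20 to 0.08). *Eef2k* had ratios of 0.07 (−0.20 to 0.34), negative under TMM, and 0.29 (0.09 to 0.50).

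**Figure D2:**
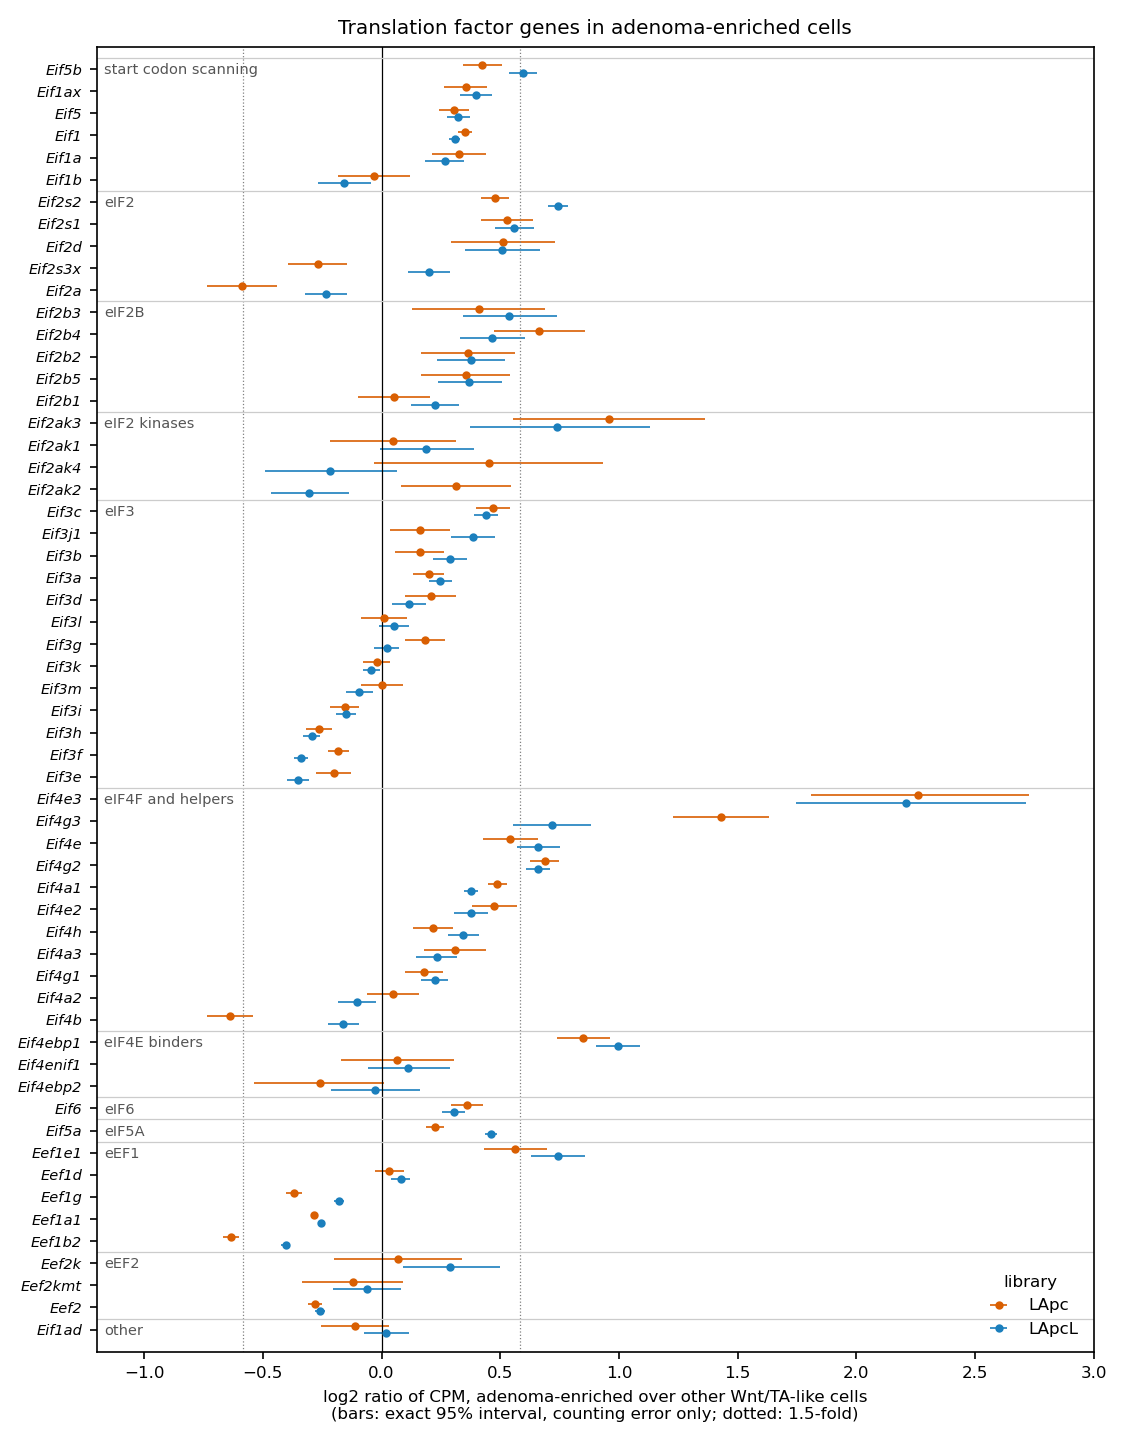
Log2 ratio of CPM (x axis) of adenoma-enriched over other Wnt/TA-like cells for the 58 factor genes with 100 or more UMIs over both cell groups in each library (y axis, by role), with *LApc* and *LApcL* in separate colors, exact 95% intervals of the counts as bars and dotted lines at 1.5-fold. *Eif4e3* lies farthest right in both libraries (2.26 and 2.21), and *Eef1a1*, *Eef1b2*, *Eef1g* and *Eef2* lie left of 0 in both. TMM scaling shifts all points to the left, by −0.27 and −0.17.

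Of 30 further genes of the pathway that could be tested, 7 were called higher and 1 lower in *LApc*, and 5 higher and 1 lower in *LApcL*. Over all genes tested the shares were 30.3% and 10.4% in *LApc* and 19.7% and 8.86% in *LApcL*, so these counts did not pass the background in either direction. *Pdcd4*, which encodes an inhibitor of eIF4A, was the gene called lower in both, at 66.2 against 335 CPM in *LApc* (−2.34) and at 85.6 against 273 CPM in *LApcL* (−1.67). *Ppp1r15a*, which encodes a phosphatase subunit that reverses eIF2 phosphorylation, and *Trib3*, *Dhps* and *Mcts2* were called higher in both. Their ratios in *LApc* were 2.56, 1.27, 0.89 and 0.88. *Dhps* encodes the first enzyme of hypusine synthesis on eIF5A. *Ddit3*, *Mknk1* and *Paip2* were called in *LApc* (1.00, 0.86 and 0.74), and *Etf1*, the release factor, in *LApcL* (0.66).

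Marker lists of other cells and of tissue handling moved along with these ratios in *LApc*. The 6 immediate early and heat shock genes summed to 371 CPM in adenoma-enriched against 73.4 CPM in other Wnt/TA-like cells of *LApc*, and to 184 against 90.2 CPM in *LApcL*. The 6 immune markers summed to 114 against 6.30 CPM in *LApc* and 2.36 against 1.08 CPM in *LApcL*, and the 5 stromal markers to 198 against 3.27 CPM and 1.76 against 1.37 CPM. In *LApc* adenoma-enriched cells *Gzma* (88.2 CPM), a lymphocyte gene, and *Vim* (196 CPM) made up most of these sums, while *Col1a1* and *Col3a1* were at 0. An immune or stromal marker UMI was seen in 411 of 1260 *LApc* (32.6%, exact interval 30.0 to 35.3) and in 200 of 8977 *LApcL* adenoma-enriched cells (2.23%). Without these cells the *LApc* median over the 60 genes was 0.23. The part of the stress genes in the ratios was not tested.

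Next, *LApcL* was set against *LApc* in adenoma-enriched cells, which asks what the added *Lef1* deletion goes with. Few of the factors differed by much, and *Eif3j2* was the main exception. The median log2 ratio was 0.12 over the 60 genes and −0.16 over all genes tested. Among genes with a mean level of 50 CPM or more, the median was 0.14 for 43 factor genes and 0.003 for all 2739. *Eif3j2* alone was called higher (3.92% of all genes) and *Eif2ak3* alone lower (21.7%). Under TMM 2 genes were called higher and 0 lower, so that the call of *Eif2ak3* was lost. At 1.2-fold, 8 genes were called higher (12.1%). The intervals of 29 genes lay above 0 and of 11 below, and under TMM, which shifted the ratios by 0.16, those of 46 and 4. No share of all genes was counted by intervals alone, so these counts have no background beside them. The median of the ribosomal protein genes was 0.25.

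On the higher side, *Eif2s2* followed *Eif3j2* with 586 CPM in *LApcL* against 424 CPM in *LApc* (0.47, 0.42 to 0.51). *Eif2a* had 71.8 against 53.5 CPM (0.43), *Eef1b2* 1343 against 1041 CPM (0.37), *Eif2b1* 75.8 against 59.9 CPM (0.34) and *Eif5b* 271 against 218 CPM (0.31). The intervals of *Eif2a*, *Eif2d*, *Eif2s1*, *Eif2s2* and *Eif2s3x* all lay above 0. The 4 lowest genes had ratios above 0 in adenoma-enriched over other Wnt/TA-like cells of *LApc*, also under TMM. *Eif2ak3* had 7.70 against 11.7 CPM (−0.61, −0.89 to −0.31), *Eif4g3* 39.2 against 55.0 CPM (−0.49), *Eif2ak2* 20.5 against 27.8 CPM (−0.44) and *Eif4e3* 12.7 against 16.6 CPM (−0.39). Next came *Eif4a2* (−0.27) and *Eif1b* (−0.25). These 2 comparisons share the *LApc* adenoma-enriched cells, so the second is no separate support for the first.

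Many of the main factors lay near 0. *Eif4ebp1* had 147 CPM in *LApcL* and 145 CPM in *LApc* (0.03, −0.05 to 0.10), *Eif4e* 120 and 116 CPM (0.05, −0.04 to 0.14), and *Eif6* 323 and 316 CPM (0.03, −0.02 to 0.09). *Eif4a1* (−0.01) and *Eef2* (−0.02) lay just below 0 and turned positive under TMM, *Eif3a* (0.03) and *Eif4g1* (0.07) just above. *Eef1a1* had a ratio of 0.12, *Eif2s1* of 0.16 and *Eif5a* of 0.24. Of the 30 further pathway genes 0 were called higher (3.92% of all genes) and 3 lower (21.7%), *Ppp1r15a* (−1.28), *Ddit3* (−1.27) and *Mknk1* (−0.69), the kinase of eIF4E.

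The mix of subclusters differed between the libraries. Subcluster 5, marked by *Wfdc18*, held 39.9% of *LApc* (37.2 to 42.7) and 3.29% of *LApcL* adenoma-enriched cells (2.93 to 3.68). Within each of the 4 adenoma-enriched subclusters alone the median over the 60 genes was smaller, from 0.06 to 0.09, and *Eif3j2* was called higher in each. *Eif2ak3* was called lower in subcluster 2 only, where *Eif4g3* was too, *Eif4e3* in subcluster 1 and *Eif2ak2* in subcluster 5.

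*Eif3j2* is a gene without introns on chr18:43475418-43477796 (minus strand), and its transcript of 2379 bases is 99.8% identical over 2369 aligned bases to that of *Eif3j1* (chr2:122028546-122056598, plus strand), which has 8 exons. Both encode eIF3j, the loosely bound eIF3 subunit at the decoding site. The last 500 bases, near which the reads fall, were also 99.8% identical, so reads of this pair may have been split between the genes in counting and their levels are uncertain. *Eif3j2* stood at 23.7 CPM in *LApcL* and 2.73 CPM in *LApc* adenoma-enriched cells (3.12, 2.57 to 3.72), from 2555 and 27 UMIs. *Eif3j1* stood at 101 and 88.6 CPM (0.18, 0.09 to 0.29). The difference was not bound to adenoma-enriched cells. *Eif3j2* gave 17.0% of the pair's UMIs in other Wnt/TA-like cells of *LApcL*, against 2.08% in WT and 2.78% in *LApc*. In adenoma-enriched cells its share was 19.0% in *LApcL* and 2.99% in *LApc*. Enterocyte-like cells gave 18.9% against 2.35% (WT) and 2.92% (*LApc*), and goblet-like cells 20.03% against 2.82% and 2.85%. In the smaller classes, too, *LApcL* had the highest share, between 15.1% (tuft-like) and 19.0% (enteroendocrine-like), whereas *LApc* ranged from 0 of 11 UMIs (tuft-like), for which the exact interval reaches 28.5%, to 9.21% (Paneth-like). The *LApcL* and *LApc* intervals did not overlap in 5 of 7 classes and overlapped in Paneth- and tuft-like cells. *Apc*, floxed in both *LApc* and *LApcL*, lies on the same chromosome as *Eif3j2*, at chr18:34220924-34322552 (plus strand), whereas *Lef1* lies on chr3. Per the methods the *Lef1 fl/fl* line was made on a mixed C57BL/6 and 129SV background and then backcrossed. Library, mouse and strain origin, be it of the *Lef1* line or of sequence near the floxed *Apc*, cannot be told apart here.

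**Figure D3:**
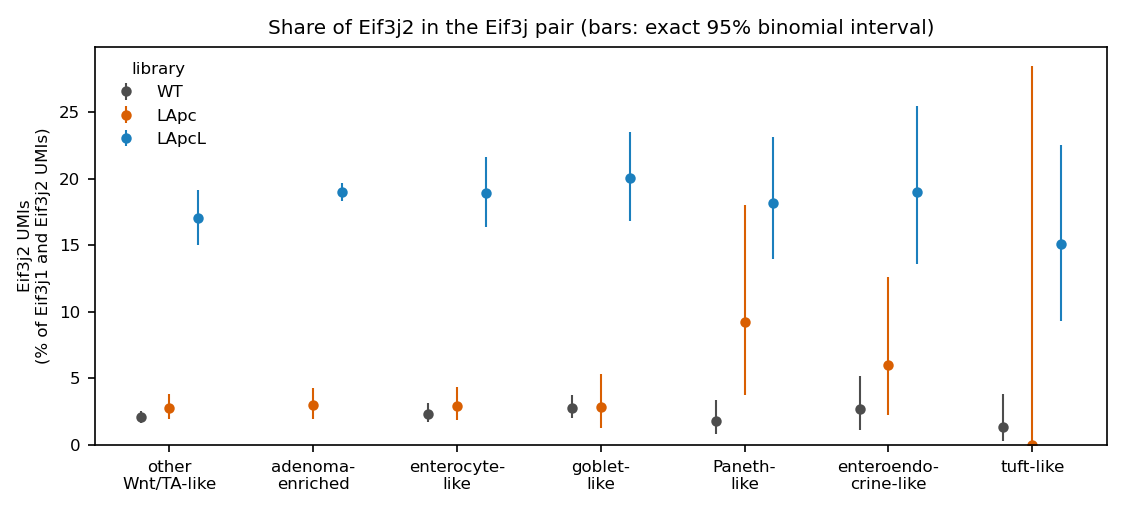
Share of *Eif3j2* among the UMIs of *Eif3j1* and *Eif3j2* (y axis, percent) by cell class (x axis) and library (color), with exact 95% binomial intervals as bars. *LApcL* points lie between 15.1% and 20.03% in all 7 classes, and WT points between 1.33% and 2.82%.

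Other Wnt/TA-like cells of *LApc* were also compared with those of WT, which asks how far the libraries differ in cells outside the adenoma. The factors differed little. The median log2 ratio was −0.02, beside 0.07 over all genes, and with ribosomal protein and mitochondrial genes left out of the total it was 0.02. *Eif4e3* was called higher (3.46 against 1.66 CPM, 1.06, 0.50 to 1.62), beside 10.1% of all genes, and 0 genes were called lower (3.19%). Below the threshold for a call, *Eif4ebp1* (80.4 against 57.4 CPM) and *Eif2ak3* (6.05 against 4.32 CPM) had 0.49 each, *Eef2* 0.48 (1595 against 1146 CPM), *Eif4b* 0.47 and *Eif2ak4*, the amino acid sensor Gcn2, 0.32 (−0.09 to 0.72). The lowest ratios were those of *Eif2b4* (−0.49), *Eif3j1* (−0.47), *Eif4a3* (−0.40), a helicase of the exon junction complex, *Eif5b* (−0.39), *Eif3g* (−0.31) and *Eif2s1* (−0.31). *Eef1a1* had 0.11, *Eif3a* −0.01, positive with the other total, *Eif5a* −0.10, *Eif4g1* −0.12, *Eif4a1* and *Eif6* −0.14 each and *Eif4e* −0.27. Of the 30 pathway genes 2 were called higher (10.1% of all genes) and 0 lower (3.19%). The heat shock genes *Hspa1a* and *Hspa1b*, which can mark tissue handling, stood at 46.9 and 24.5 CPM in WT and at 0.126 and 0.0630 CPM in *LApc*, and their WT levels were the higher ones in every other class set against WT too. Their part in the ratios to WT was not tested.

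Enterocyte-like cells, the absorptive cells of the villus, had lower factor levels than other Wnt/TA-like cells of the same library, by CPM. The median log2 ratio over the 60 genes was −0.66 in WT, −0.79 in *LApc* and −0.49 in *LApcL*, beside −0.22, −0.32 and −0.13 over all genes. In all 3 libraries 20 genes were called lower (21.7% of all genes) and 1 higher (14.1%). Under TMM 10 were called lower and 2 higher, and with ribosomal protein and mitochondrial genes left out of the total 37 were called lower. At 1.2-fold, 40 genes were called lower (30.2%). Without *LApcL* the other libraries shared 34 genes called lower. The 14 eIF3 genes all had intervals below 0 in each library, with medians of −0.79, −1.03 and −0.61, and 8 of them were among the 20. *Eif3g* went from 223 to 104 CPM in WT, from 179 to 76.8 CPM in *LApc* and from 237 to 130 CPM in *LApcL*. Of the elongation genes *Eef1b2*, *Eef1d* and *Eef1g* were called, with ratios between −0.77 and −1.28, while *Eef1a1* stood at −0.65, −0.75 and −0.49 and *Eef2* at −0.25, positive under TMM, −0.45 and −0.24. *Eef2kmt* had −1.26, −1.23 and −0.95. The other called genes were *Eif1ax*, *Eif2a*, *Eif2ak4*, *Eif2b1*, *Eif2b3*, *Eif2s1*, *Eif4a1* and *Eif4a3*. *Eif4a1* went from 756 to 385, from 687 to 314 and from 734 to 460 CPM, whereas its paralog *Eif4a2* differed by at most 0.04 on the log2 scale. *Eif4e3* was the gene called higher, at 4.96, 6.73 and 6.38 CPM (1.58, 0.96 and 1.22). *Eif6* had 315, 311 and 325 CPM, with ratios of 0.22, 0.34 and 0.31, of which the first turned negative with the smaller total.

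Goblet-like cells, which secrete mucus, had 1 gene called higher in all 3 libraries, *Eif2ak3*, and a count of genes called lower close to that of all genes. Medians were −0.66, −0.93 and −0.46 in WT, *LApc* and *LApcL*, beside −0.51, −0.61 and −0.32 over all genes. Called lower in all 3 were 14 of the 60 genes (24.5% of all genes), 7 of them among the 20 of enterocyte-like cells, and 1 was called higher (9.81%), against 2 and 3 under TMM. The gene for Perk, *Eif2ak3*, had 19.3, 21.2 and 13.5 CPM, against 4.32, 6.05 and 4.61 CPM in the other Wnt/TA-like cells (2.16, 1.81 and 1.55). No interval of the goblet-like levels met one of the other Wnt/TA-like levels. *Eif4ebp1* also had positive ratios (1.23, 0.41 and 0.57), called in WT and, under TMM, in all 3. The genes called lower included *Eif1ad* (−1.55, −1.69 and −1.08), a relative of eIF1A, *Eif3l* (−1.28, −1.37 and −0.93), *Eef1b2* and *Eef1e1*, and *Eif4b*, *Eif4ebp2*, *Eif1ax*, *Eif1b*, *Eif2a*, *Eif2s1*, *Eif2s3x*, *Eif3d*, *Eif3e* and *Eif3g*.

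Enteroendocrine-like cells, which make gut hormones, had the highest *Eif4e3* levels of all classes. *Eif4e3* had 22.0 CPM in the WT library, 37.9 in *LApc* and 45.0 in *LApcL*, with ratios over other Wnt/TA-like cells of 3.73 (3.21 to 4.25), 3.45 (2.92 to 3.98) and 4.04 (3.48 to 4.62). It held 21.3%, 30.9% and 33.6% of the UMIs of *Eif4e3* and *Eif4e* together. These values rest on 73, 72 and 94 UMIs. *Eif4g3* was called too, at 35.3, 62.6 and 47.9 CPM (0.85, 1.62 and 1.01). They were the 2 genes called higher in all 3 libraries (15.9% of all genes), and *Eef1b2* (−0.76, −1.52 and −0.84) and *Eef1g* (−0.63, −1.27 and −0.61) the 2 called lower (5.24%), while under TMM the first 2 held and 9 genes were called lower. Medians were −0.31, −0.60 and −0.13, beside 0.08, 0.14 and 0.30 over all genes. The 5 stromal markers summed to 176, 218 and 158 CPM in these cells, with a UMI of 2 of them in each library, against 1.25, 3.27 and 1.37 CPM in other Wnt/TA-like cells. *Vim* made up nearly all of the sums in enteroendocrine-like cells (175, 213 and 153 CPM). The 6 stress genes summed to 237, 318 and 265 CPM, against 116, 73.4 and 90.2 CPM. The part of either list in these ratios was not tested.

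Tuft-like cells, the chemosensory cells of the epithelium, differed in 3 genes called higher in all 3 libraries (11.8% of all genes), and the same 3 were called under TMM. *Eef2k* (chr7:120842831-120907450, plus strand), whose kinase product is activated by calcium and calmodulin and restrains eEF2, had 63.9 (WT), 91.9 (*LApc*) and 82.8 CPM (*LApcL*). The other Wnt/TA-like cells of these libraries had 15.5, 18.4 and 15.7 CPM. Its ratios were 2.04 (1.77 to 2.31), 2.32 (1.75 to 2.85) and 2.40 (2.09 to 2.71), and no other class had a level above 20 CPM. *Eif4a2* (chr16:23107444-23114136, plus strand) stood at 263, 241 and 284 CPM (1.21, 1.11 and 1.46) and held 29.2%, 37.7% and 29.2% of the UMIs of *Eif4a2* and *Eif4a1*, against 13.1%, 14.0% and 12.3% in other Wnt/TA-like cells. *Eif4g3* stood at 39.1, 66.1 and 62.4 CPM (1.00, 1.70 and 1.39). *Eif4b* was the gene called lower (−0.62, −1.14 and −0.70, 5.99% of all genes), joined by 7 others under TMM. The *LApc* values rest on 69 cells, with 32 UMIs of *Eef2k* and 23 of *Eif4g3*. The 6 immune markers summed to 77.4, 129 and 57.2 CPM in tuft-like cells of WT, *LApc* and *LApcL*, with a UMI of 4, 1 and 3 of them. *Ptprc* made up nearly all of these sums (75.2, 129 and 56.0 CPM), while *Cd3g* and *Cd3e* were at 0. The part of these markers in the ratios was not tested.

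**Figure D4:**
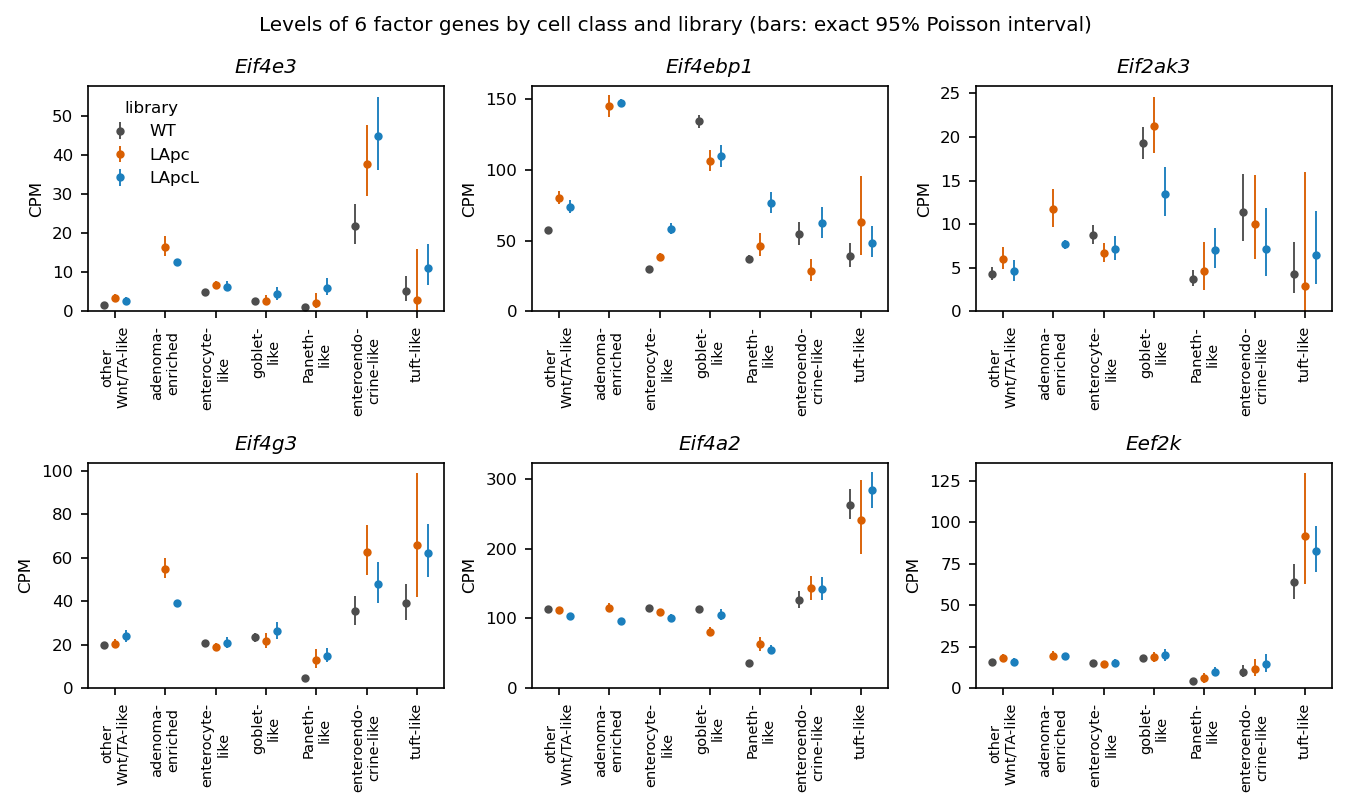
CPM (y axes, separate scales from 0) of *Eif4e3*, *Eif4ebp1*, *Eif2ak3*, *Eif4g3*, *Eif4a2* and *Eef2k* in each cell class (x axis) and library (color), with exact 95% Poisson intervals as bars. *Eif4e3* is highest in enteroendocrine-like cells (22.0 to 45.0 CPM), *Eif2ak3* in goblet-like cells (13.5 to 21.2 CPM), and *Eif4a2* and *Eef2k* in tuft-like cells (241 to 284 and 63.9 to 91.9 CPM).

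Paneth-like cells, the antimicrobial cells of the crypt base, had 47 of the 60 genes called lower than in other Wnt/TA-like cells in all 3 libraries (48.2% of all genes) and 0 higher (1.5%), but under TMM 0 were called in either direction. The WT median was −2.63, that of *LApc* −1.66 and that of *LApcL* −0.84, beside −2.41, −1.31 and −0.84 over all genes. The factor median thus lay below that of all genes in WT and *LApc* and met it in *LApcL*. *Eef1a1* stood at 827, 1995 and 2908 CPM and *Eef2* at 171, 517 and 674 CPM. *Eif4ebp1* kept a higher level than most in *LApcL*, at 76.7 CPM (0.05, −0.12 to 0.22, negative with the smaller total), against 36.7 CPM in WT (−0.64) and 46.5 CPM in *LApc* (−0.79), which turned positive under TMM.

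Finally, *LApcL* was set against *LApc* in the classes outside the adenoma-enriched cells. The median ratio of the factor genes lay above 0 in each class, also under TMM. It was 0.08 in other Wnt/TA-like, 0.38 in enterocyte-like, 0.54 in goblet-like, 0.77 in Paneth-like, 0.53 in enteroendocrine-like and 0.49 in tuft-like cells, beside −0.06, 0.12, 0.24, 0.39, 0.08 and 0.22 over all genes. Under TMM these medians were 0.13, 0.23, 0.34, 0.41, 0.48 and 0.46. The ribosomal protein genes had medians of 0.13, 0.48, 0.70, 0.63, 0.61 and 0.48. Called higher were 2 genes in other Wnt/TA-like cells (4.24% of all genes), 10 in enterocyte-like (13.3%), 25 in goblet-like (16.8%), 38 in Paneth-like (20.7%), 27 in enteroendocrine-like (10.1%) and 14 in tuft-like cells (4.17%), and under TMM 2, 5, 10, 18, 24 and 14. A call depends on the number of UMIs too, and these shares take in rare genes. They are thus not matched to the level of the factor genes, which matters most in small classes, and the TMM counts have no share beside them. The 2 genes called higher in other Wnt/TA-like cells were *Eif3j2* (2.80, 2.29 to 3.36) and *Eif2ak4* (9.07 against 5.10 CPM, 0.83, 0.42 to 1.25). A single gene was called lower anywhere, *Eif2ak3* in goblet-like cells (13.5 against 21.2 CPM, −0.65, 5.3% of all genes). In the other classes 0 were, beside 5.78% of all genes in other Wnt/TA-like, 4.87% in enterocyte-like, 5.38% in Paneth-like, 6.86% in enteroendocrine-like and 4.18% in tuft-like cells.

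Both libraries were also set against WT. The median of *LApc* over WT was −0.16 in enterocyte-like, −0.31 in goblet-like, −0.30 in enteroendocrine-like and −0.46 in tuft-like cells, beside −0.02, −0.01, 0.12 and −0.08 over all genes. That of *LApcL* over WT was 0.24, 0.25, 0.21 and 0.08, beside 0.10, 0.19, 0.20 and 0.12 over all genes. TMM took the last 2 factor medians of *LApcL* to −0.01 and −0.10. In Paneth-like cells the factor medians were 0.97 and 1.78, beside 1.15 and 1.54 over all genes. Under TMM these factor medians were −0.27 and 0.18. *LApc* was the shallowest library, with the most barcodes over the mitochondrial limit and the later day, and the part of these in the medians was not tested.

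**Figure D5:**
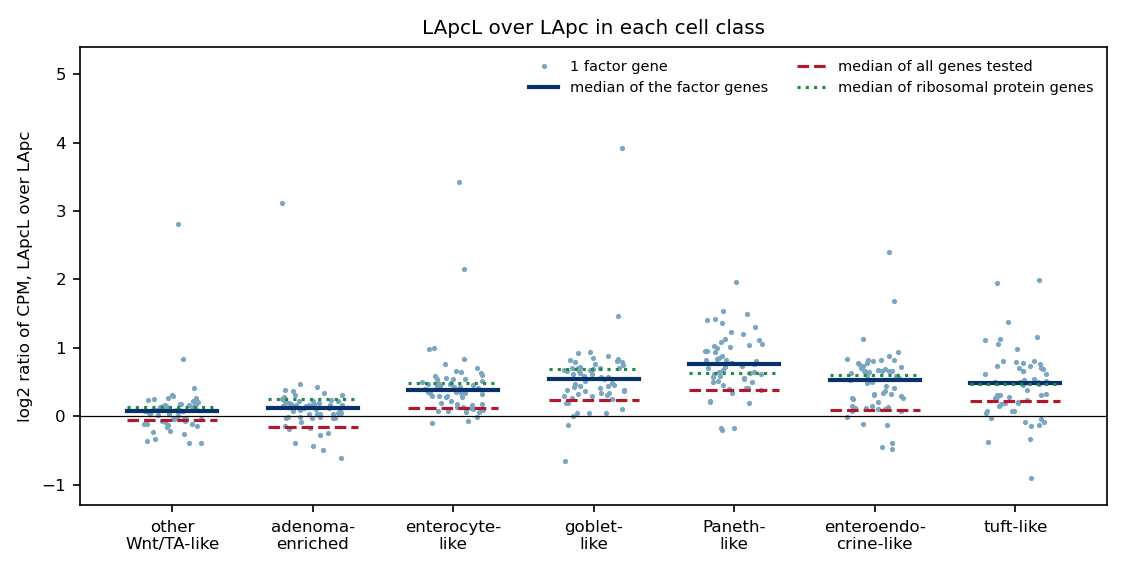
Log2 ratio of CPM of *LApcL* over *LApc* (y axis) for each factor gene (points) in each cell class (x axis), with the medians of the factor genes (solid), of all genes tested (dashed) and of ribosomal protein genes (dotted). By CPM the factor median lies above the median of all genes in every class, from 0.08 against −0.06 in other Wnt/TA-like to 0.77 against 0.39 in Paneth-like cells. TMM shifts both medians of a class alike, so it cannot change their order. The highest point of each class but tuft-like cells is *Eif3j2*, which had 0 UMIs in *LApc* tuft-like cells and is not plotted there.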

How the data were processed

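Cells were dissociated from small intestine, sorted as EpCAM+ and sequenced on the 10x Chromium platform (droplets, 3′ ends). The deposited matrices hold the authors' raw UMI counts per gene and cell, made with Cell Ranger 2.1.1 on an mm10 reference; per the methods Reagent Kit v2 or v3 was used, and which of these made each library is not given in the sources used here. Barcodes in the lowest and highest 1% of genes detected, those with over 20% mitochondrial UMIs, and those with the highest Scrublet scores (0.8% per 1000 barcodes; 1023, 1135 and 2326 removed) were left out. Libraries were integrated in Seurat 5.3.0 (R 4.3.3) over 795 genes, without the factor genes, and clustered (20 components, resolution 0.2). Wnt/TA-like cells were subclustered in scanpy 1.11.5 with leidenalg 0.10.2 (resolution 0.4). A cluster with 6 of 7 goblet markers raised stayed unnamed and unused because proliferation genes of another class were among its leading genes. UMIs were summed per class and library, divided by the class total (CPM), and compared as log2 ratios with exact conditional binomial 95% intervals (scipy 1.17.1), for 13787 genes with 100 or more UMIs. No test was run, since each genotype had 1 library. Sequences came from RefSeq (GRCm38.p6) and gene positions from GENCODE vM21, and transcripts were aligned with Biopython 1.88. The calculation was tested on simulated data. Named genes are the 6 highest and 6 lowest ratios with 100 or more UMIs in each main comparison, every gene called, and 10 main factors. The members and lists were chosen with earlier results of these data known. Alternatives were another total, TMM, other cell filters, marker classes and 1.2-fold. Counts under another total or TMM, without 1 library, or by intervals alone stand without a share of all genes, which was not counted.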

Additional observations from a re-analysis of the deposited data

Results flagged for a closer look

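For 2 genes the ratio of adenoma-enriched over other Wnt/TA-like cells had opposite signs in the *LApc* and *LApcL* libraries, with both intervals off 0 by CPM. *Eif2ak2*, the kinase that senses double-stranded RNA, had a log2 ratio of 0.31 (0.08 to 0.55) in *LApc* and of −0.30 (−0.47 to −0.14) in *LApcL*, a difference of −0.62. *Eif2s3x*, the X-linked gamma subunit of eIF2, had −0.27 (−0.39 to −0.14) in *LApc* and 0.20 (0.11 to 0.29) in *LApcL*, a difference of 0.47. With 1 library per genotype these differences were not tested. The shift of TMM scaling is larger than the lower limit of *Eif2ak2* in *LApc* and that of *Eif2s3x* in *LApcL*. Under TMM these intervals thus take in 0. The share of all genes with such opposite intervals was not counted.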

How the results depend on the processing

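Here the median log2 ratios of the factor genes were 0.12 for *LApcL* over *LApc* in adenoma-enriched cells, 0.21 and 0.26 for adenoma-enriched over other Wnt/TA-like cells in *LApc* and *LApcL*, and −0.02 for *LApc* over WT in other Wnt/TA-like cells. Under TMM they were 0.27, −0.0620, 0.0836 and −0.0676, so that the second changed sign, with 2 genes called higher in the first comparison in place of 1 and 10 called lower in enterocyte-like cells in place of 20. With ribosomal protein and mitochondrial genes left out of the total they were 0.23, 0.0246, 0.11 and 0.0176, so that the last changed sign, with 37 called lower in enterocyte-like cells. Both changes follow from how the totals are set. Cells classed by marker score gave 0.11, 0.24, 0.27 and −0.0321, and 29 genes called lower in enterocyte-like cells. The first median was 0.11 at a mitochondrial limit of 10%, 0.0920 in S100g-high subclusters and, in alternatives chosen after seeing the data, 0.0994 without cells that held an immune or stromal marker UMI and 0.0776, 0.0620, 0.0890 and 0.0617 within subclusters 1, 2, 3 and 5. The second was 0.20 with the top 5% of doublet scores removed, 0.27 in S100g-high subclusters and 0.23 without marker UMIs. The third was 0.25 both with those doublets removed and with a minimum of 1000 UMIs. At 1.2-fold, 8 genes were called higher in the first comparison and 40 lower in enterocyte-like cells. Leaving out 1 library gave 20 to 34 genes called lower in enterocyte-like cells, the highest without *LApcL*. Apart from these 28 values that moved and 2 that reversed, 26 kept their direction and stayed within their error or, for counts, within 1.5 times. No paired analysis was possible because each genotype had 1 library and no test was run. Rare genes limit the depth, since *Eif4e3*, *Eif2ak3* and *Eif5a2* had 0 to 64 UMIs in some groups.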
